A study of Homo sapiens with 13 samples.

Results

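The genes described here are 9 genes of MHC class I antigen presentation, of 20007 protein-coding genes in GENCODE release 44 on hg38. They are the class I heavy chains HLA-B, HLA-C and HLA-E, the light chain B2M, the peptide transporter subunits TAP1 and TAP2, the loading chaperone TAPBP (tapasin), the immunoproteasome subunit PSMB9 and the class I transactivator NLRC5. They were chosen by name and not by a cut on any measured value, but with earlier results of these data known. Each was read in the accessible regions of both lines, over the start of the gene, its body and 20 kb to either side.

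MHC class I molecules carry peptides of intracellular proteins to the cell surface, where CD8+ T cells read them. Proteins are cut by the proteasome, the TAP heterodimer pumps the peptides into the endoplasmic reticulum, tapasin bridges TAP and the empty heavy chain, and the loaded chain leaves with β2-microglobulin, the product of B2M. Transcription of these genes runs through interferon and NF-κB sites and through the SXY module, on which NLRC5 assembles with RFX, CREB and NF-Y factors. Small cell lung cancer (SCLC) is known for low surface class I, most of all in its neuroendocrine form.

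The study profiled chromatin accessibility by ATAC-seq (open DNA is cut and tagged by the Tn5 transposase) in H82 and H146, established human SCLC lines labelled wild type. Cells were untreated (3 H82 and 4 H146 samples) or were given 100 nM FHD-286, which blocks SMARCA4 and SMARCA2, the ATPases of SWI/SNF chromatin remodelers, for 14 days (3 samples of each line). The regions came as 1 atlas per line, pooled over untreated and treated samples, so the values below compare H82 with H146 and say nothing of FHD-286. Each line is 1 atlas with no height, read count or depth per region, there is no spread between replicates, and no difference below was tested. The difference between lines cannot be told apart from that in the number of libraries (6 for H82, 7 for H146), their depth or the number of DNA copies.

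Whole-atlas values set the scale. H82 had 206927 regions and H146 174093, a ratio of 1.19, and the ratio of covered bases was 1.20. The ratio of regions was 1.16 on chromosome 6, which carries 7 of the 9 genes, 1.80 on chromosome 15 (B2M) and 1.04 on chromosome 16 (NLRC5). The neuroendocrine marker genes INSM1, SYP, CHGA and NCAM1 had a region within 1 kb of their start in both lines, and NEUROD1 had one in H82 and none in H146. Of the leukocyte genes reported, CD14 had one in both lines and PTPRC, CD3E and LYZ in neither. Of 3 fibroblast and endothelial genes, COL1A1 and PECAM1 had one in both lines and DCN in neither.

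One property of the files touches every result. Among 113588 pairs of regions that overlapped 1 to 1 between the atlases, 34514 (30.4%) began at exactly the same base and 34576 (30.4%) ended at the same base. Both edges were the same in 19180 pairs (16.9%) and at least 1 edge in 49910 (43.9%). At any other distance within 50 bp, at most 529 pairs had their starts and at most 526 their ends. The cause was not tested. Whether the atlases were made independently of each other is not given in the sources used here, and results are also given for regions that share no edge.

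**Figure D1:**
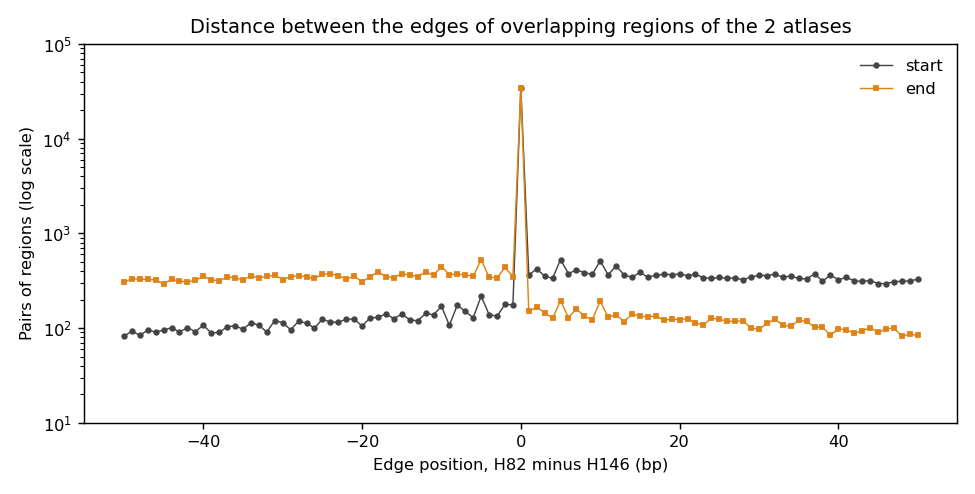
Pairs of overlapping regions (log scale) by the distance in bp between their starts and between their ends, H82 minus H146, over all chromosomes. The spike at 0 holds 34514 starts and 34576 ends, against at most 529 and 526 at any other distance shown.

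The promoters of the class I genes are shown first because every region discussed below as a promoter region covers them. RefSeq entries (GRCh38.p14) were matched for 7 genes, and HLA-E and NLRC5 were not matched. Words were searched on both strands in the 250 bases before each start. They were the Y box (ATTGG), the X1 core (AGCAAC), the X2 or CRE word (TGACG), the interferon-stimulated response element core ISRE (GAAANNGAA), the interferon-γ site GAS (TTCNNNGAA), the NF-κB word (GGGANTNNC) and the GC box (GGGCGG). Matches are in capitals, adjoining or overlapping matches run together, and those on the opposite strand appear as their complement. HLA-C (chr6:31272093-31272292, minus strand) and B2M (chr15:44711317-44711516, plus strand) show the 200 bases before the start, with the kB, CRE and Y box words of both promoters and the paired ISRE words of B2M:

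HLA-C: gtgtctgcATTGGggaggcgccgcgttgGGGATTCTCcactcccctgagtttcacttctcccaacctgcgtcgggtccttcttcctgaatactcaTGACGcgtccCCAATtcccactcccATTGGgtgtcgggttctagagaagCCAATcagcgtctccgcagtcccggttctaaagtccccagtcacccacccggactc

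B2M: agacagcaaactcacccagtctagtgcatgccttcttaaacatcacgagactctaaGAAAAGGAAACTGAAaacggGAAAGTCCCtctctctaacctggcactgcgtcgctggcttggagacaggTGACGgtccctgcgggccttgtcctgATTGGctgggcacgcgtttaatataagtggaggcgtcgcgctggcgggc

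Shorter stretches are given for HLA-B, TAP1, TAP2 and TAPBP, where other transcripts of the gene or of a read-through gene begin further upstream. HLA-C and B2M also have a GENCODE 5′ end upstream of the start used, at chr6:31272130 and chr15:44711358, inside the stretches printed above. The paired ISRE words of B2M, 144 and 138 bases before the start used, lie downstream of its GENCODE 5′ end. HLA-B (chr6:31357256-31357285, minus strand) shows the CRE and Y box words, while TAP1 (chr6:32853815-32853844), TAP2 (chr6:32838775-32838804) and TAPBP (chr6:33314079-33314105), all on the minus strand, show the ISRE words:

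HLA-B: TGACGcgtccccacttcccactcccATTGG

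TAP1: ggccgctTTCGATTTCGCTTTCccctaaat

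TAP2: gggaagcGAAAGCGAAagctgcccgagccc

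TAPBP: tttggagGAAAGTGAAAGTGAAaggag

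TGACG lay 25 bases before an ATTGG in HLA-B and in HLA-C, and 26 bases before it in B2M. HLA-B and HLA-C are close paralogs with much the same letters here, so their equal distances are not separate observations. A distance of 24 to 27 bases on one strand was found in 73 of 35116 promoters (0.208%), and this range was set after the 3 distances had been seen. The Y box was in 5 of the 7 promoters and in 32.0% of all promoters, and the CRE word in 5 of 7 and 21.2%. The windows of TAP1 and PSMB9 overlap at their far ends. The Y box of TAP1, 249 bases before its start, and that of PSMB9, 243 bases before its start, are the same bases counted for both. The ISRE core was in 4 of 7 (B2M, TAP1, TAP2, TAPBP) and in 6.88% of all promoters. In B2M, TAP1 and TAPBP it occurred as a pair. The kB word was in 5 of 7 and 13.2%, and the GC box in 5 of 7 and 42.6%. The letters of the X1 core (10.3% of all promoters) and of GAS (6.57%) were in none of the 7 windows. A match is only a match of letters. In both lines, all 250 bases before each of the 7 starts lay inside an accessible region.

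All 9 genes had an accessible region within 1 kb of the start in both lines, against 75.4% of all protein-coding genes (15083 of 20007). A start region in H82 only was found for 5.09% of all genes and in H146 only for 1.86%, and for 0 of the 9. The start used here is the 5′ end of the GENCODE gene. For HLA-B that end lies 9.89 kb and for PSMB9 10.1 kb from the start of the canonical transcript, and for the other 7 at most 206 bp. At the canonical starts the count was also 9 of 9. The start regions of 6 of the 9 genes shared an edge between the lines, against 26.9% of the 15083 genes with such a region in both. Without all regions that share an edge, 3 of 9 genes (HLA-C, B2M, TAPBP) kept a start region in either line, and 4 of 9 at the canonical start, where HLA-B joined them. The share of all genes that keep one under this filter is not given, so these counts have no background.

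H146 had the wider start region in 8 of the 9 genes, against 52.2% of all genes with one in both lines. HLA-E, at 1590 bp in H82 and 1585 bp in H146, was the exception. The widths in H82 and H146 were nearly equal, with 1 edge shared, at HLA-B (936 and 941 bp), TAP1 (1639 and 1653 bp), TAP2 (1212 and 1224 bp) and PSMB9 (1557 and 1565 bp). At the canonical starts, where TAP1 and PSMB9 share a region, 7 of 8 distinct regions were wider in H146, 5 of them by 152 bp or less. At 4 canonical starts neither edge was shared: those of HLA-B, HLA-C, B2M and TAPBP. In each of these 4 the H146 region reached past the H82 region on both sides. Among all 11427 genes whose canonical start regions shared no edge, H146 reached past H82 on both sides in 36.2% and H82 past H146 in 28.0%. The other 4 distinct regions coincided on 1 side.

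**Figure D2:**
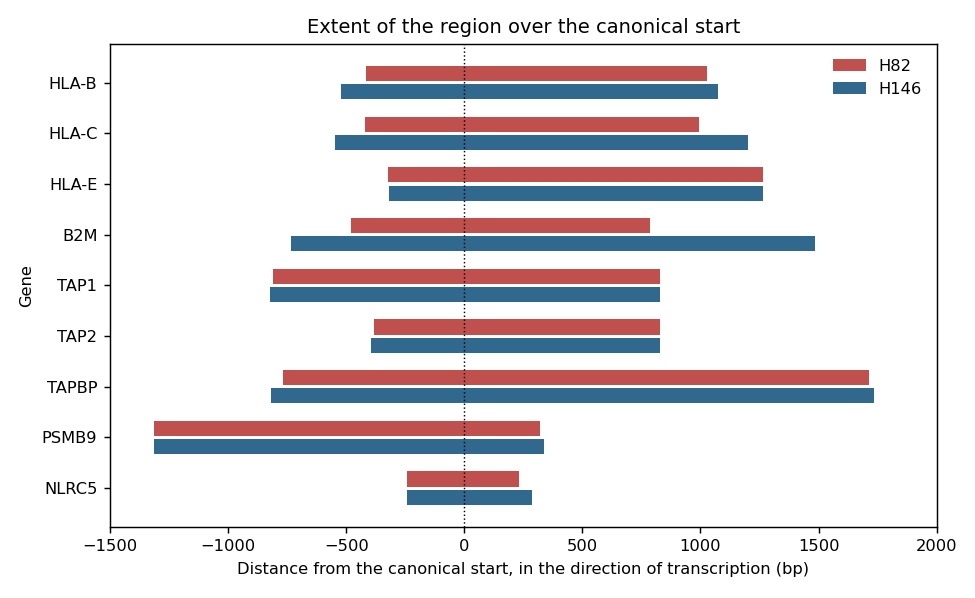
Extent in bp of the region over the canonical start of each gene in H82 and H146, in the direction of transcription, with the start at 0. The B2M region of H146 reached 251 bp further upstream and 698 bp further downstream than that of H82, while the regions of TAP1, TAP2, PSMB9, HLA-E and NLRC5 coincided on 1 side.

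Over the gene and 20 kb to either side, H146 had more regions at 6 genes, H82 at 2, and TAP2 had 3 in each. More regions in H146 were found for 26.9% of all genes. The covered bases were higher in H146 at 7 of 9 genes, against 36.1% of all genes, and higher in H82 at HLA-E and TAPBP. A difference of 1.5 times or more was called at 1 gene, HLA-E, with H82 higher (29.1% of all genes), and at 0 genes with H146 higher (6.86% of all genes). The count of 0 depended on the scaling and window. Divided by the covered bases of the whole line it was 3 (HLA-B, HLA-C, B2M), divided by those of the chromosome it was 2 (HLA-C, B2M), and it was 1 with 5 kb or 10 kb to either side, over the gene body alone or with regions of at least 500 bp. No share of all genes is given under these settings, and the 6.86% belongs to the main setting alone. The median log2 ratio of covered bases, H82 over H146, was -0.09 over the 9 genes and 0.17 over the 19140 genes with regions in both lines. The windows of TAP1, TAP2 and PSMB9 overlap and hold the same regions in H82, and in H146 differ by 1 region that lies outside the window of TAP2. Counted as 7 loci that share no window, 5 were more covered in H146 and 2 in H82.

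**Figure D3:**
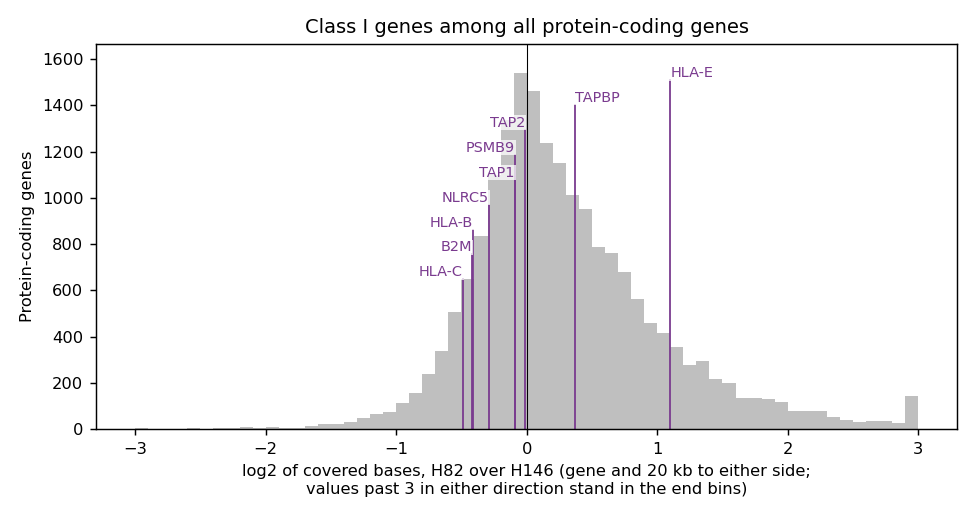
Distribution of the log2 ratio of covered bases (H82 over H146) in the gene and 20 kb to either side over 19140 protein-coding genes, with a line at the value of each class I gene (line heights only separate the names). HLA-C is lowest at -0.49 and HLA-E highest at 1.10.

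Each region counted once, the 7 loci span 455 kb and held 35 regions in H82 and 34 in H146, a ratio of 1.03 (exact 95% interval 0.624 to 1.70, for counting error only). They covered 7.68% of these bases in H82 and 7.25% in H146. Of the H82 regions 23 (65.7%, exact interval 47.8 to 80.9%) overlapped a region of H146, and of the H146 regions 23 (67.6%, 49.5 to 82.6%) overlapped one of H82. Over the whole atlases these shares were 59.3% and 70.5%. The interval of the ratio of regions treats the counts of the lines as independent, which overlapping regions are not. The 12 regions of H82 alone were 200 to 829 bp wide with a median of 402 bp, and the 11 of H146 alone were 202 to 490 bp with a median of 300 bp. Regions found in both lines were wider, with medians of 1270 bp in H82 and 1120 bp in H146. Only 1 of these 23 line-only regions, that over SMIM40 in H82, touched the start of a protein-coding gene. Over the whole atlases the median width of all regions was 482 bp in H82 and 499 bp in H146. Neither the widths of shared and line-only regions nor the share of line-only regions at a gene start is given there. Whether these values are particular to the class I loci can therefore not be said. At each of the 7 loci the promoter region of the class I gene was in both lines.

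**Figure D4:**
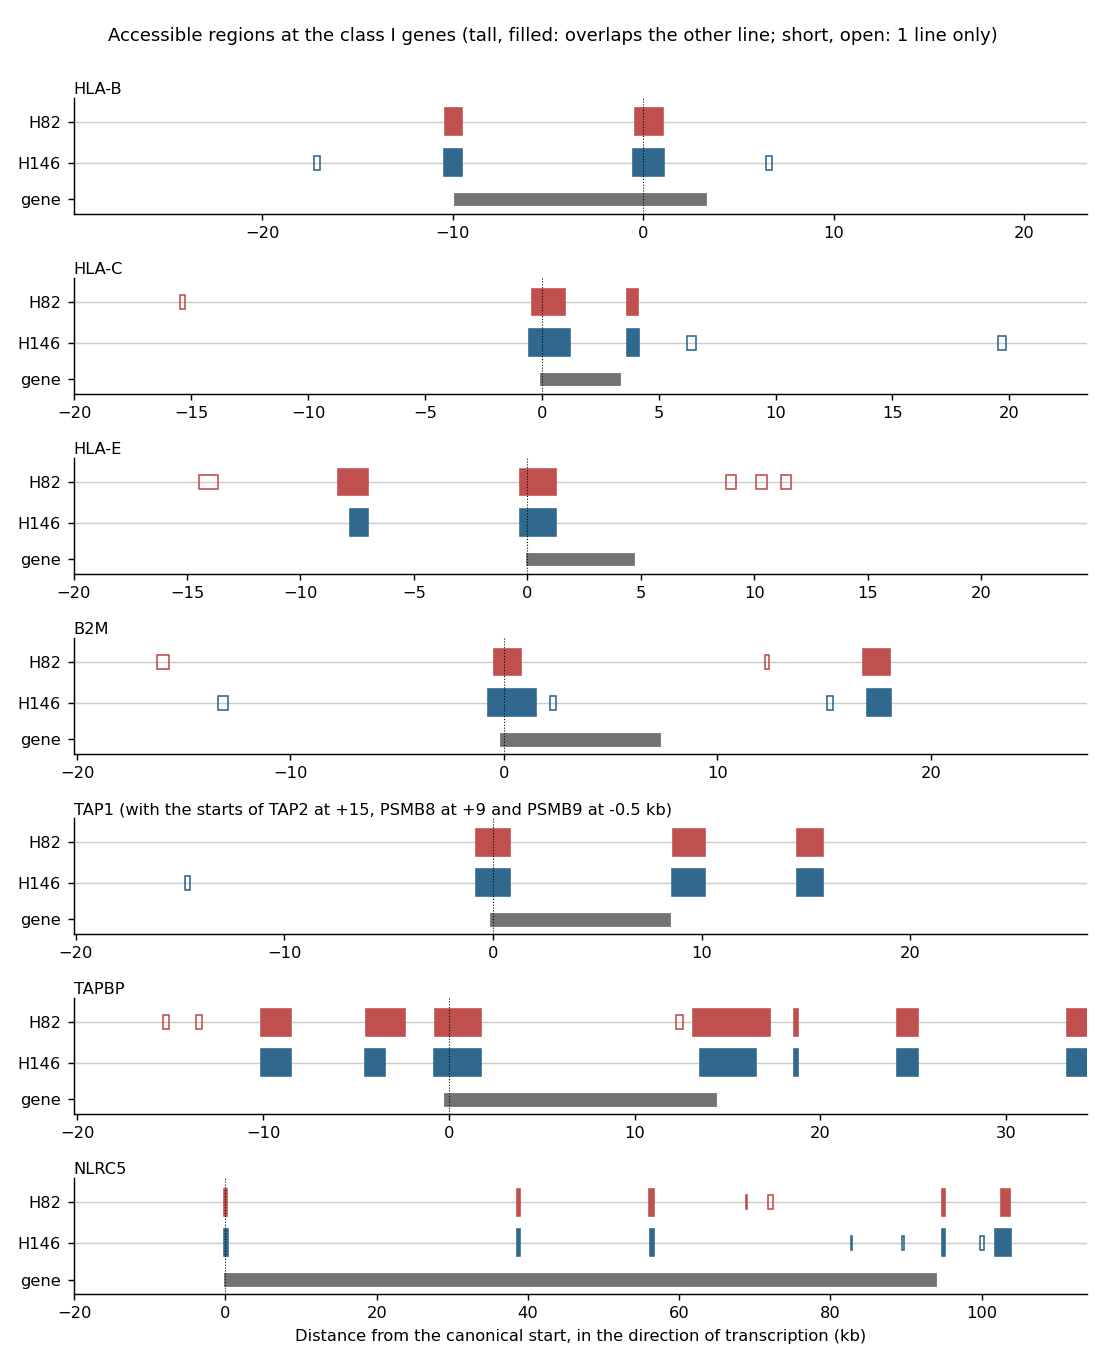
Regions of H82 (red) and H146 (blue) at the 7 loci, by distance in kb from the canonical start in the direction of transcription, over the gene (grey) and 20 kb to either side. Tall filled boxes overlap a region of the other line and short open boxes do not; every promoter region is filled in both lines, and HLA-E has 4 open boxes in H82 and none in H146.

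HLA-B and HLA-C encode classical heavy chains, which present peptides to CD8+ T cells. HLA-B had 2 regions in H82 and 4 in H146, covering 4.48% and 5.96% of its window. Its promoter region spanned chr6:31356152-31357597 in H82, 1446 bp, and chr6:31356106-31357703 in H146, 1598 bp. H146 reached 106 bp further upstream and 46 bp further downstream. A second shared region, 936 bp in H82 and 941 bp in H146, lay at the 5′ end of the long transcript and started at the same base in both. The other 2 regions of H146, of 334 bp and 300 bp, lay between genes on either side of HLA-B and had no counterpart in H82.

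HLA-C had 3 regions in H82 and 4 in H146, which covered 4.87% and 6.84%. Its promoter region measured 1413 bp in H82, against 1750 bp in H146, with 127 bp more upstream and 210 bp more downstream in H146. A region just past the 3′ end of the gene was found in both lines, at 489 bp in H82 and 500 bp in H146, with the same end. H82 alone had a region of 211 bp upstream, and H146 alone had regions of 410 bp and 306 bp downstream of the gene. HLA-B and HLA-C are close and highly polymorphic paralogs, so the placement of reads between them, and on a reference that may differ from the alleles of either line, is uncertain.

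HLA-E encodes a nonclassical heavy chain that presents signal peptides of other class I chains to NK cell receptors. It differed from the other heavy chains in the direction of its values, with 6 regions in H82 and 2 in H146. They covered 11.4% of the window (5099 bp) in H82 and 5.34% (2386 bp) in H146, a ratio of 2.14. The promoter region was nearly the same, at 1590 bp and 1585 bp with the same downstream edge, and covered 27.0% of the gene body in either line. The difference lay outside the gene. A region that ended 7.02 kb upstream was 1323 bp in H82 and 801 bp in H146. H82 alone had one of 829 bp further upstream, at chr6:30475037-30475865, and a group of 3 between 8.75 and 11.6 kb downstream of the start, at chr6:30498260-30498718, chr6:30499591-30500075 and chr6:30500704-30501116. These 4 lay between genes. With 5 kb to either side, or over the gene body alone, HLA-E no longer differed by 1.5 times (log2 ratio 0.37 and 0.00).

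B2M encodes the light chain that every class I molecule needs. Its promoter region, which also covers the start of the divergent gene PATL2, was 1268 bp in H82 (chr15:44711036-44712303) and 2217 bp in H146 (chr15:44710785-44713001), 1.75 times as wide. This was the largest difference in promoter width among the 9 genes. It covered 786 bp past the start in H82 and 1484 bp in H146. A further region of 293 bp, in an intron of B2M at chr15:44713663-44713955, was in the H146 atlas alone. Regions covered 12.6% of the gene body in H82 and 25.8% in H146, a log2 ratio of -1.03. Over the full window H82 had 4 regions and H146 had 5, covering 6.95% and 9.29%. The direction differs from most genes of its chromosome. On chromosome 15, where H82 had 1.90 times the covered bases of H146, 40 of 600 genes (6.67%) were more covered in H146, B2M among them. Divided by the chromosome's total, the log2 ratio of B2M was -1.35.

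TAP1, TAP2 and PSMB9 lie together in the class II part of the MHC on chromosome 6, with PSMB8 (the other inducible proteasome subunit of the cluster) between them. The canonical starts of TAP1 and PSMB9 face away from each other 487 bases apart, and 1 region covered both. This region was 1639 bp in H82 (chr6:32852876-32854514) and 1653 bp in H146 (chr6:32852876-32854528). The TAP2 promoter region was 1212 bp wide in H82 and 1224 bp wide in H146. The region over the start of PSMB8, which is also the GENCODE 5′ end of PSMB9, was 1557 bp and 1565 bp. Each of these 3 promoter regions began at the same base in both atlases, and at the other edge H146 was longer by 8 to 14 bp. In addition, H146 alone had a region of 238 bp past PSMB9. Regions covered 9.07% of the TAP1 window in H82 and 9.63% in H146, 7.75% and 7.81% of that of TAP2, and 7.91% and 8.40% of that of PSMB9. Of the 9 genes these 3 had the smallest differences between the lines. Since all their regions in H82 share an edge with H146, their likeness rests entirely on regions of that kind.

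TAPBP encodes tapasin, which holds the empty heavy chain at the TAP transporter. Its window was the most covered of the 9 genes, at 25.1% in H82 (10 regions) and 19.4% in H146 (7 regions). The window also holds the starts of PFDN6, WDR46, RGL2, ZBTB22, DAXX and SMIM40, and much of the difference lay at these neighbours. The region over the start of RGL2 was 4146 bp in H82 and 3010 bp in H146, and that over ZBTB22 was 2140 bp and 1062 bp. The promoter region of TAPBP itself went the other way, at 2484 bp in H82 and 2555 bp in H146. H82 alone had regions of 392 bp in an exon of TAPBP, of 294 bp in an intron of SMIM40 and of 280 bp at its start. Divided by the total of each line, the log2 ratio of TAPBP fell from 0.37 to 0.10.

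NLRC5 encodes the transactivator of the class I genes and is induced by interferon-γ. It had the narrowest promoter region of the 9, at 473 bp in H82 (chr16:56989315-56989787) and 531 bp in H146 (chr16:56989315-56989845), with the same upstream edge. The median start region over all genes with one in both lines was 1830 bp wide in H82 and 1720 bp wide in H146. The NLRC5 window of 134 kb was covered to 2.95% in H82 (7 regions) and 3.59% in H146 (8 regions). On chromosome 16, where the ratio of covered bases was 0.966, 55.8% of genes were more covered in H146, the direction seen at NLRC5. Both lines had a region over an exon 38.6 kb into the gene and one over an intron at about 56.0 kb. H82 alone had 2 regions within the gene (218 bp and 686 bp), and H146 alone had 2 others within it (202 bp and 275 bp) and 1 past its end (411 bp). Over the gene body alone the order was the other way round, 2.44% in H82 and 1.89% in H146. The region over the start of the next gene, CPNE2, was 1188 bp in H82 and 2040 bp in H146.

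**Figure D5:**
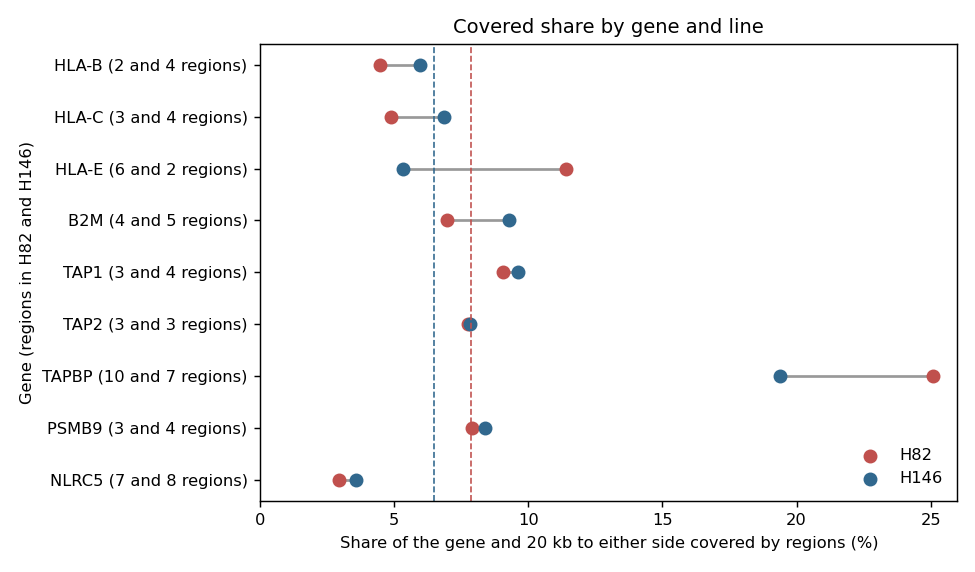
Share (%) of the gene and 20 kb to either side covered by regions in H82 and H146 for each class I gene, with the number of regions in brackets and dashed lines at the medians of all protein-coding genes (7.85% in H82, 6.49% in H146). H146 lies to the right of H82 in 7 genes, and HLA-E and TAPBP lie the other way.

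Neighbouring genes on chromosome 6 gave other shares than the class I genes. Of the other 142 genes from HLA-F to TAPBP, 23.2% were more covered in H146 and 71.1% had a start region in both lines. Over all of chromosome 6, 36.2% were more covered in H146. These shares describe the surroundings, and the difference from the 9 genes was not tested.

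The wider pathway was read with a list of 34 further genes. Of these, 29 (85.3%) had a start region in both lines, beside 75.4% of all genes. IFNAR2 and HLA-DRA had one in H82 alone, ERAP2 in H146 alone, and IRF1 and CIITA had none. Covered bases were higher in H146 in 13 (38.2%, beside 36.1% of all genes). They were past 1.5 times in 8 with H82 higher (23.5%, beside 29.1%) and in 3 with H146 higher (8.82%, beside 6.86%). The median log2 ratio was 0.16 over the 33 with regions in both lines.

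Among the processing genes and other class I chains, HLA-F had 7 regions in H82 and 8 in H146 and was covered to 13.2% in either line. HLA-G, a nonclassical chain best known from trophoblast, was covered to 6.47% in H82 and 8.40% in H146, in the direction of HLA-B and HLA-C. PSMB8 stood at 10.0% and 10.1%. ERAP2, which trims peptides in the endoplasmic reticulum, had a start region of 274 bp in H146 and none in H82, and was covered to 4.11% in H82 and 7.17% in H146. PDIA3, a disulfide isomerase of the loading complex, was covered to 14.2% in H82 and 8.37% in H146. PDIA3 lies on chromosome 15 like B2M, and its direction was the opposite one.

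The interferon receptor genes did not share a direction. IFNGR1, the ligand-binding chain of the interferon-γ receptor, was covered to 3.79% in H82 and 5.73% in H146. IFNGR2, IFNAR1 and IFNAR2, neighbours on chromosome 21, were covered to 13.4%, 8.56% and 10.0% in H82 and to 5.34%, 4.81% and 4.12% in H146. On chromosome 21 as a whole the ratio of covered bases was 2.04, and the part of this chromosome-wide difference in these values was not tested. The start region of IFNAR2 at its GENCODE 5′ end, of 200 bp, was in H82 only. At its canonical start both lines had one, of 2036 bp and 1588 bp. IRF1, an interferon-induced activator of class I genes, had no region at its GENCODE 5′ end, but at its canonical start it had one of 1646 bp in H82 and 1839 bp in H146.

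Of the SXY-binding factors, RFXAP (19.1% and 7.11%), CREB1 (7.57% and 4.05%) and NFYC (12.1% and 4.01%) were more covered in H82 than in H146 by 1.5 times or more, 3 of 7 genes beside 29.1% of all genes. RFX5 (11.6% and 7.83%) and NFYA (7.48% and 5.83%) were also more covered in H82, by less than 1.5 times. RFXANK (16.5% and 22.8%) and NFYB (8.57% and 10.1%) were more covered in H146, by less than 1.5 times. The start regions of all 7 genes of this group were in both lines. Among class II genes, CIITA, the class II counterpart of NLRC5, had no start region in either line and was covered to 2.73% in H82 and 4.86% in H146. HLA-DRA, a class II chain, had 1 region in H82, of 374 bp at its start, and 0 regions in H146.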

How the data were processed

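Samples were grouped by the cell line and treatment given in their labels. Per the study's methods and the submitters' processing notes, the authors trimmed paired reads (Trim Galore 0.4.4), aligned them to hg38 (bowtie2 2.3.4), removed duplicates (Picard), called regions per sample (MACS2), took out blacklisted regions and merged those of a line within 500 bp. The deposited values are the start and end positions of each region, with no score or count. Depth per library was unknown, and the number of unused per-sample columns was 0. A region stands in an atlas if any library gave it, and merging joins neighbouring sites.

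Regions were set against GENCODE release 44 on hg38, 1 record per gene symbol, in Python 3.11.15 with numpy 2.4.6 and scipy 1.17.1. A region belonged to a window if it overlapped it by 1 bp, and covered bases were those within the window. Overlap between lines needed 1 bp. With 1 atlas per line, a difference was called at 1.5 times in covered bases. Exact intervals are binomial, were checked on simulated data and cover counting error only. Every class I gene was named, as were the pathway genes past 1.5 times or with a start region in 1 line only, with PSMB8, HLA-F and HLA-G. IRF1, RFX5, NFYA, RFXANK and NFYB were named after their values were seen. Some marker genes are not reported here. The members and lists were chosen with earlier results of these data known. Alternatives were other flanks and windows, canonical starts, regions of at least 500 bp, stricter overlap, scaling to the line or chromosome and, added after seeing the data, no regions with a shared edge and loci that share no window.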

Additional observations from a re-analysis of the deposited data

How the results depend on the processing

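Of 140 values under alternative settings, 119 stayed within 1.5 times of the reported value (or, for the shares and ratio at the 7 loci, within their exact intervals) and 21 moved. Part of this tally was fixed in advance. Scaling to the line's total changes the covered ratio of every gene by 1.20. Scaling to the chromosome's total changes it by 1.11 on chromosome 6 and 0.966 on chromosome 16. The log2 ratios could not move under the line's total, nor under the chromosome's total for genes on chromosomes 6 and 16. On chromosome 15, where the ratio of covered bases was 1.90, that of B2M moved from -0.42 to -1.35. The tally does not measure stability. The log2 ratio of covered bases changed sign at HLA-C with 50 kb to either side (0.12) and at NLRC5 with 5 kb to either side (0.22) or over the gene body alone (0.36). The number of genes more covered in H82 was 2 or 3 under every alternative run, and the ratio of regions at the 7 loci stayed between 0.824 and 1.14. Without regions that share an edge, the genes with a start region fell to 3 in H82 and 3 in H146, and to 4 and 4 at the canonical start. The count of genes past 1.5 times with H82 higher went from 1 to 0 with 5 kb to either side and to 0 over the gene body alone. The count with H146 higher went from 0 to 1 with 5 kb, with 10 kb, over the gene body alone and with regions of at least 500 bp. It became 3 divided by the line's total (HLA-B, HLA-C, B2M), 2 divided by the chromosome's total (HLA-C, B2M) and 4 without regions that share an edge. Of these 4, HLA-B (log2 ratio -0.63) and HLA-C (-0.60) have a ratio, while TAP1 and PSMB9 have 0 covered bases left in H82 and the same 238 bp region in H146, so no fold can be given for them. For the counts of genes past 1.5 times or with a start region, no share of all genes is given under these alternative settings. With regions of at least 500 bp, 85.7% of H82 and 90.0% of H146 regions at the 7 loci overlapped the other line.

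No paired analysis was possible because each line has 1 pooled atlas, and for the same reason leaving out a replicate was not possible. The sequencing batches of H146 are pooled in its atlas. No depth, height or effect of FHD-286 can be read from these files.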
